A study of Mus musculus with 12 samples.

Results

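Interferons are secreted proteins that cells make when they sense foreign or misplaced nucleic acid, and the interferon response genes are the genes that other cells, or the same cell, switch on when an interferon binds its receptor. The 38 genes described here were taken from a list of interferon and interferon-induced genes. A gene counted as measured when the array annotation gave it a probe set (a group of probes summarised to 1 value) with that single symbol, and the brightest such probe set was used. By this rule 36 of the 38 genes were measured, and all 36 also passed the filter on low values that left 20135 of 22180 genes in the whole series. Gbp2 shares its annotated probe set with another symbol and Ifi44 has none in the annotation used, so both were not analysed here. The 36 comprise 1 ligand, Ifnb1, 4 transcription factors, 4 nucleic acid sensors, 4 oligoadenylate synthetase genes, 3 IFIT genes, 3 antiviral GTPases, 4 other antiviral effectors, 3 genes of the ISG15 and ubiquitin ligase system, 4 antigen processing genes and 6 further induced genes.

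As background, type I interferons such as interferon beta bind the receptor IFNAR, whose kinases activate transcription factors in the cytoplasm. STAT2 and IRF9 are parts of the resulting complex ISGF3, which binds the interferon-stimulated response element (ISRE) in the promoters of induced genes, while interferon gamma acts mainly through the gamma-activated site (GAS). Epithelia use this system against viruses, and a low level of many of its genes is kept up without infection.

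RNA was measured on 12 microarrays from epithelial cells sorted out of the prostate. The animals were male, wild type and hormone-naïve, and the sorts set cells that carry the surface protein LY6D against those that do not. Cells bearing CD45, CD31 or Ter119 (blood, endothelial and red cell antigens) had been gated out as lineage-positive. The Sca1-high gate took CD49f-positive cells with high Sca1, the basal gate CD49f-positive cells with intermediate Sca1, and the luminal gate cells low for both, where CD49f is an integrin of basal cells. Each gate was divided into LY6D+ and LY6D- cells, which gave 6 groups of 2 arrays: LY6D+ and LY6D- Sca1-high cells from mice 1 and 5, LY6D+ and LY6D- basal cells from mice 3 and 5, and LY6D+ and LY6D- luminal cells from mice 4 and 5. The labels give neither the animals' ages nor whether several animals were pooled under 1 number. Apart from mouse 5 the mice differ between gates, so that outside mouse 5 the gate and the mouse cannot be told apart, and the LY6D+ and LY6D- arrays of 1 mouse and gate are paired. Values are the authors' normalized log2 signals, in which 1 unit is a 2-fold difference and 2.98 is the lower quartile of the whole table. Levels of different genes come from different probes and are not compared with each other.

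The sorted cells were first set against marker genes. The mean signal of 8 measured basal epithelial markers was 7.62 to 9.05 in basal arrays, against 5.41 to 7.35 in luminal arrays. Within the luminal gate it was 7.25 to 7.35 in LY6D+ and 5.41 to 5.77 in LY6D- arrays. The mean of 8 measured luminal markers was 6.45 to 8.13 in Sca1-high, 7.22 to 8.48 in basal and 8.46 to 9.05 in luminal arrays. On that luminal list the basal and luminal arrays overlapped narrowly. The Ly6d probe set, by contrast, did not follow the labels. It read 4.70 to 5.96 in arrays labelled LY6D+ and 4.61 to 7.37 in arrays labelled LY6D-, and was higher in the LY6D+ array of 3 of 6 pairs, so LY6D+ and LY6D- are used below strictly as the labels' classes. Markers of other cell types differed between groups: 17 of 17 macrophage and myeloid markers averaged 4.60 to 6.0 in Sca1-high, 4.31 to 4.87 in basal and 6.28 to 7.55 in luminal arrays (summed log2 signals of 78.1 to 102, 73.2 to 82.8 and 107 to 128), and 16 of 16 endothelial markers averaged 5.54 to 7.0 in Sca1-high, 4.28 to 6.53 in basal and 4.19 to 4.59 in luminal arrays (sums of 88.7 to 112, 68.5 to 104 and 67.1 to 73.5). At most 2 of the myeloid markers and 1 of the endothelial markers lay at or below the lower quartile in any array. The luminal LY6D- array of mouse 5 stood apart with the highest mean of 12 of 13 lymphoid markers that were measured, 5.60 against at most 4.47 elsewhere (sums of 46.4 to 51 in Sca1-high, 44.9 to 48.3 in basal and 45.6 to 67.1 in luminal arrays), and the LY6D+ Sca1-high array of mouse 5 correlated least with the other arrays (median r = 0.807) and had the lowest signal of the luminal keratin gene Krt8, 6.48. In such bulk samples fewer cells of a type and less RNA per cell cannot be told apart.

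Across the gates, the clearest values were those of the ligand gene Ifnb1, which was lower in basal and in Sca1-high than in luminal cells, and of Plscr1, which was higher in basal than in luminal cells. Of the 36 genes, limma called 1 higher and 1 lower in basal than in luminal cells after Benjamini-Hochberg adjustment over all 20135 genes at 0.05, against 0.139% and 0.278% of all genes tested. Between Sca1-high and luminal cells 0 were called higher and 1 lower, against 0.0397% and 0.0993% of all genes. Between Sca1-high and basal cells limma called 0 members in either direction, against 0% of all genes called higher and 0.00993% called lower, with 7 members at an unadjusted p under 0.05 (19.4%, against 9.83% of all genes).

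The median fitted difference of the 36 genes was -0.37 for basal minus luminal cells, against -0.03 over all genes, with 27 of 36 below 0, and it was -0.15 without the LY6D- luminal array of mouse 5. It was 0.02 for Sca1-high minus luminal, against 0.07 over all genes, and -0.14 without the LY6D+ Sca1-high array of mouse 5. It was 0.21 for Sca1-high minus basal, against 0.11 over all genes, and 0.089 without the same array. Centring the arrays on their medians changed the value over all genes to -0.02. The differences between Sca1-high and basal cells given here are not centred and are best read against 0.11. By gate mean, 16 of the 36 were highest in luminal cells (44.4%, against 27.7% of all genes), 14 in Sca1-high (38.9% against 47.1%) and 6 in basal cells (16.7% against 25.1%). The basal gate held the lowest mean of 22 of the 36 (61.1%, against 43.5% of all genes). Without the LY6D- luminal array of mouse 5, an omission chosen after seeing the data, the luminal gate was highest for 11 and the basal gate lowest for 18, and without the LY6D+ Sca1-high array of mouse 5 the Sca1-high gate was highest for 9. Without overlap between the 4 arrays of each gate, 1 member (Plscr1) stood above and 5 (Ifnb1, Ifih1, Oasl1, Cmpk2 and B2m) below in basal against luminal cells, where 2.58% and 3.17% of all genes did. In Sca1-high against luminal cells 0 stood above and 2 (Ifnb1 and Cmpk2) below, against 3.57% and 2.48% of all genes, and in Sca1-high against basal cells 1 (Oas2) stood above and 1 (Plscr1) below, against 4.77% and 2.26%.

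**Figure D1:**
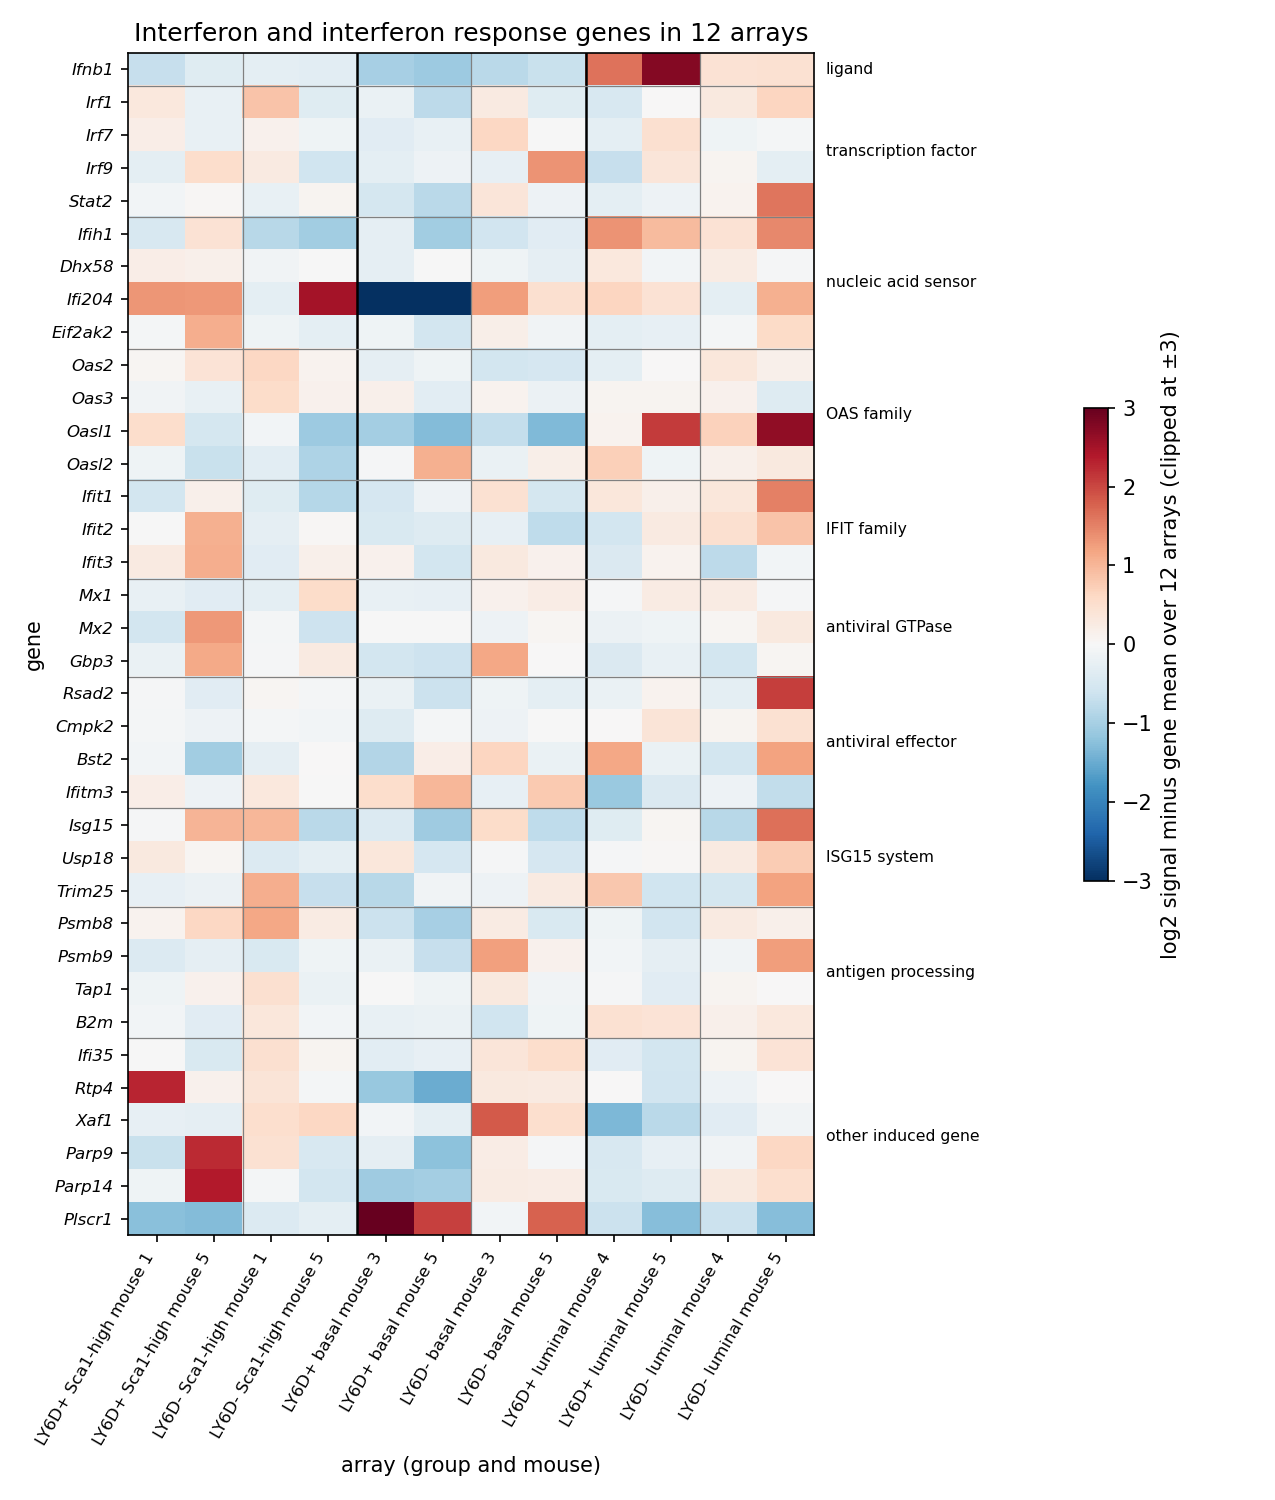
Log2 signal of each of the 36 interferon genes (rows, grouped by role) in the 12 arrays (columns), shown as the difference from that gene's mean over the 12 arrays and clipped at ±3. In the last column, the LY6D- luminal array of mouse 5, 11 genes had their highest signal, and the darkest blue cells are Ifi204 in both LY6D+ basal arrays.

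Ifnb1 encodes interferon beta and was the only ligand among the 36. It read 2.60 and 2.95 in LY6D+ and 3.01 and 2.99 in LY6D- Sca1-high cells, 2.31 and 2.22 in LY6D+ and 2.49 and 2.63 in LY6D- basal cells, and 4.94 and 6.05 in LY6D+ and 3.74 and 3.75 in LY6D- luminal cells. All 4 luminal arrays lay above the 8 others, 6 of which, with all 4 basal arrays among them, were at or below the lower quartile of the table. With no detection p, whether those low values lie above background is not known, so the size of a difference from them is uncertain. The basal mean was 2.41 ± 0.18 and the luminal mean 4.62 ± 1.11 (SD, n = 4 arrays each), a difference of -2.21 ± 0.24 (SE) with an adjusted p of 0.0122 by limma. It was -2.48 within mouse 5 and -1.94 over the other mice, and the call was lost without LY6D+ basal mouse 3 (adjusted p = 0.0537) and without the 3 mouse 5 arrays that stand apart on the first principal component, those of LY6D+ and LY6D- basal and LY6D- luminal cells (-2.22, adjusted p = 0.214). The Sca1-high mean was 2.89 ± 0.19, and its difference from luminal cells was -1.73 ± 0.24 with an adjusted p of 0.0429 by limma, which became 0.0857 with mouse as a replicate block and stayed past the threshold in only 7 of 23 alternatives. The mean of Sca1-high cells exceeded that of basal cells by 0.48 ± 0.24 (adjusted p = 0.539, limma), which did not pass the test. Within the luminal gate Ifnb1 averaged 5.5 ± 0.79 in LY6D+ and 3.74 ± 0.01 in LY6D- cells (SD, n = 2 each), a difference of 1.75 ± 0.35 that was not called either (adjusted p = 0.844, limma). The myeloid markers, which were also highest in luminal cells, averaged 6.62 and 7.16 in the LY6D+ luminal and 6.28 and 7.55 in the LY6D- luminal arrays. Markers of stress from cell dissociation (10) averaged 8.66 to 9.11 in luminal, 8.0 to 8.75 in Sca1-high and 8.23 to 8.51 in basal arrays. Those of plasmacytoid dendritic cells (4) averaged 4.53 to 5.0, 4.51 to 4.70 and 3.62 to 4.86 in the same order. The 5.0 was in LY6D+ luminal mouse 5, where Ifnb1 was highest. The part of these marker lists in the Ifnb1 difference was not tested.

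The Ifnb1 promoter is shown because the gene carries the main gate difference. The window runs from 250 bases before to 50 bases after the annotated start (RefSeq, build GRCm38.p6, chr4:88522745-88523044, minus strand, written 5′ to 3′ along the gene), and it holds neither of the motifs searched, the ISRE core GAAANNGAA and the GAS TTCNNNGAA, on either strand, so it has no capitals.
Ifnb1: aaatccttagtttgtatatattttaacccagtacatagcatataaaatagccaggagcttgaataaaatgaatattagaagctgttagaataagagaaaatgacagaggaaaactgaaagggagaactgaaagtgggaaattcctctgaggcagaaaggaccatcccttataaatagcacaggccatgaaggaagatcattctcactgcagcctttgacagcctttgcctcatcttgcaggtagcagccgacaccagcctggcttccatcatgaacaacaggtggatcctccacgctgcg

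Plscr1 encodes phospholipid scramblase 1, a membrane protein that interferon induces and that restricts several viruses. It read 4.55 and 4.51 in LY6D+ and 5.40 and 5.52 in LY6D- Sca1-high cells, 9.13 and 7.86 in LY6D+ and 5.73 and 7.58 in LY6D- basal cells, and 5.17 and 4.53 in LY6D+ and again 5.16 and 4.53 in LY6D- luminal cells. All 4 basal arrays exceeded the 8 others, with LY6D- basal mouse 3 closest to them. The basal mean was 7.58 ± 1.40 and the luminal mean 4.85 ± 0.37 (SD, n = 4), a difference of 2.73 ± 0.42 with an adjusted p of 0.0356 by limma. The difference was 3.19 within mouse 5 and 2.27 over the other mice, but the call did not hold with mouse as a replicate block (adjusted p = 0.112) and held in 12 of 23 alternatives, whose adjusted p ran between 0.0123 and 0.125. It was also lost when LY6D- luminal mouse 5 was left out (2.57, adjusted p = 0.0993). Sca1-high cells averaged 4.99 ± 0.54, which differed from basal cells by -2.58 ± 0.42 (adjusted p = 0.166, limma) and passed the threshold only when LY6D- basal mouse 3 was left out (-3.04, adjusted p = 0.0173). Within the basal gate LY6D+ cells averaged 8.49 ± 0.89 and LY6D- cells 6.66 ± 1.31 (n = 2), a difference of 1.84 ± 0.60 (adjusted p = 1.00, limma). The 8 basal epithelial markers also had their highest means in basal arrays, and their part in the Plscr1 difference was not tested.

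The Plscr1 window (chr9:92249944-92250243, plus strand, GRCm38.p6) is given as the promoter of the gene that was higher in basal cells. Capitals mark 1 GAS match, and there was no ISRE core.
Plscr1: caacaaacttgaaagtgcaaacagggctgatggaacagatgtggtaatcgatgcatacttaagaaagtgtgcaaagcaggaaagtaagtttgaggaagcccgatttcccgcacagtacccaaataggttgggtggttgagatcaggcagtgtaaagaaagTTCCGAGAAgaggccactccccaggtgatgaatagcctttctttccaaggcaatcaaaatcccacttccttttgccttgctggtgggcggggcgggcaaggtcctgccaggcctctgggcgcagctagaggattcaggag

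**Figure D2:**
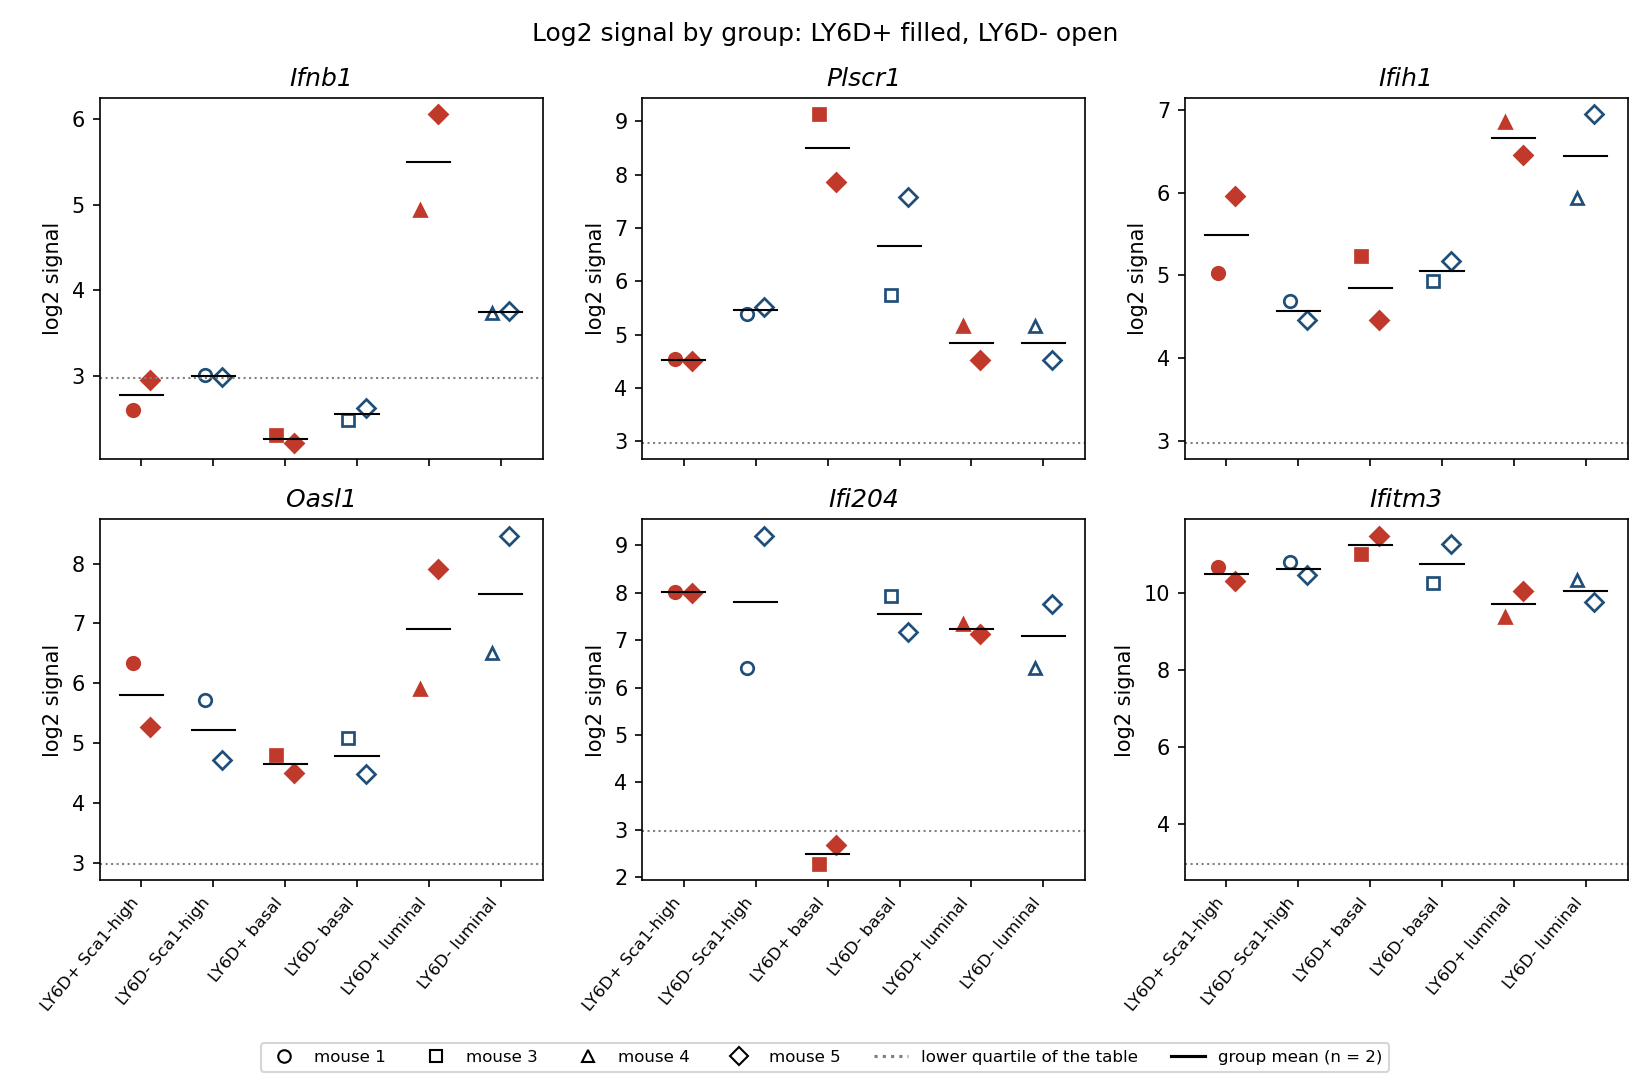
Log2 signal of 6 interferon genes in each array, by group, with the marker shape giving the mouse, LY6D+ arrays filled and LY6D- arrays open; lines are means of 2 arrays and the dotted line is the lower quartile of the table. Ifnb1 was high in the 4 luminal arrays, Plscr1 in the 4 basal arrays, and Ifi204 was at the bottom of the scale in the 2 LY6D+ basal arrays.

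Of the sensors of foreign nucleic acid, none was called in any comparison. Ifih1 encodes MDA5, a cytoplasmic sensor of long double-stranded RNA, and its levels were 5.02 and 5.96 in LY6D+ and 4.69 and 4.46 in LY6D- Sca1-high cells, 5.24 and 4.46 in LY6D+ and 4.94 and 5.17 in LY6D- basal cells, and 6.86 and 6.46 in LY6D+ and 5.93 and 6.95 in LY6D- luminal cells. The basal and luminal arrays did not overlap, while the LY6D+ Sca1-high array of mouse 5 reached just above the lowest luminal one. The difference was -1.60 ± 0.31 for basal minus luminal (adjusted p = 0.0749, limma) and -1.52 ± 0.31 for Sca1-high minus luminal (adjusted p = 0.142, limma). Neither passed, and both did so only when LY6D- luminal mouse 4, the lowest luminal array, was left out (-1.85, adjusted p = 0.0320, and -1.77, adjusted p = 0.0488). The myeloid markers were highest in the luminal gate as well, and their part in the Ifih1 difference was not tested.

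The Ifih1 window (chr2:62646206-62646505, minus strand, GRCm38.p6) is shown for comparison with that of Ifnb1. It holds 2 ISRE cores, in capitals, 1 starting 112 bases before the gene's start and 1 inside the transcript.
Ifih1: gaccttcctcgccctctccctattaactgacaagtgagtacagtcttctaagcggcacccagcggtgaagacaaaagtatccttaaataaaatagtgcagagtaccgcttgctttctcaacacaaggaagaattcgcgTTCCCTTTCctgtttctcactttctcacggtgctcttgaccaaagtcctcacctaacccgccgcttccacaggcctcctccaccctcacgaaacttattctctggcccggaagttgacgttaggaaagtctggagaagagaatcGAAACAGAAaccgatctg

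Ifi204 belongs to the p200 family of DNA-binding proteins, close relatives of which sense DNA in mouse cells, and it had the widest range of all 36 genes, 6.93. It read 8.03 and 7.99 in LY6D+ and 6.41 and 9.20 in LY6D- Sca1-high cells, only 2.28 and 2.68 in LY6D+ basal against 7.94 and 7.17 in LY6D- basal cells, and 7.34 and 7.12 in LY6D+ and 6.41 and 7.77 in LY6D- luminal cells. The 2 LY6D+ basal arrays lay below the lower quartile of the table and the 10 others far above it. With no detection p, whether those 2 values lie above background is not known, so the size of a difference from them is uncertain. The fitted LY6D+ minus LY6D- difference in basal cells was -5.08 ± 0.78, and its adjusted p was 0.435 by limma and did not pass in any of 23 alternatives (0.0597 to 0.767). The same 2 arrays make up the lower side of the basal mean, 5.02 ± 2.95, in the differences of -2.14 ± 0.55 from luminal cells (adjusted p = 0.195) and of 2.89 ± 0.55 for Sca1-high minus basal cells (adjusted p = 0.193), both by limma. The last passed the threshold only without LY6D- Sca1-high mouse 1 (3.59, adjusted p = 0.0358). Endothelial markers differed the same way in the basal gate, averaging 4.28 and 4.47 in LY6D+ and 6.53 and 6.37 in LY6D- basal arrays. In luminal arrays their mean was also low, 4.19 to 4.59, while Ifi204 read 6.41 to 7.77 there. The part of the endothelial markers in the Ifi204 difference was not tested. A second probe set is annotated to Ifi204 together with its relative Ifi211 and was not used, and whether near-identical p200 genes share signal on the probe set used was not tested.

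The other 2 sensors varied less. Dhx58, which encodes the MDA5 and RIG-I regulator LGP2, ranged over 0.59, the narrowest of the 36, with all arrays between 3.51 and 4.11. Eif2ak2 encodes PKR, a kinase that stops translation when double-stranded RNA is present; it exceeded the lower quartile in 2 arrays only, at 3.83 in LY6D+ Sca1-high mouse 5 and 3.32 in LY6D- luminal mouse 5.

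Among the oligoadenylate synthetase genes, Oasl1 was the most variable and Oas2 separated Sca1-high from basal cells. Oasl1 encodes a synthetase-like protein known in mice to inhibit translation of IRF7. It read 6.34 and 5.27 in LY6D+ and 5.72 and 4.71 in LY6D- Sca1-high cells, 4.80 and 4.51 in LY6D+ and 5.09 and 4.49 in LY6D- basal cells, and 5.91 and 7.90 in LY6D+ and 6.51 and 8.47 in LY6D- luminal cells. Both luminal arrays of mouse 5 exceeded both of mouse 4, and the basal arrays were below all luminal ones, while those of Sca1-high cells overlapped them. The difference of basal minus luminal cells was -2.48 ± 0.55 (adjusted p = 0.124, limma), and with mouse as a replicate block, where the estimate rests on mouse 5, it was -3.69 with an adjusted p of 0.0137. For Sca1-high minus luminal cells it was -1.69 ± 0.55 (adjusted p = 0.429, limma), and with the block -3.19 and 0.0214. Without the 3 mouse 5 arrays apart on the first component the basal difference was -1.76.

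Oas2, which makes the second messenger that activates RNase L, read 4.79 and 5.15 in LY6D+ and 5.36 and 4.83 in LY6D- Sca1-high cells, against 4.47 and 4.62 in LY6D+ and 4.19 and 4.22 in LY6D- basal cells. It was the only member whose Sca1-high arrays all exceeded the basal ones, by 0.66 ± 0.19, and it did not pass the test (adjusted p = 0.358, limma). Oas3, another synthetase, stayed between 4.26 and 5.19. Oasl2 averaged 4.17 ± 0.35 in Sca1-high, 4.93 ± 0.56 in basal and 4.93 ± 0.36 in luminal cells, with no call (adjusted p = 0.563 for Sca1-high minus luminal, limma).

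The 4 transcription factors showed no call in any comparison. Irf1 acts downstream of interferon gamma, Irf7 drives later interferon transcription, and Stat2 and Irf9 are parts of ISGF3. Their gate means differed by at most 0.60: Stat2 averaged 4.06 ± 0.13 in Sca1-high, 3.83 ± 0.51 in basal and 4.43 ± 0.87 in luminal cells, with its highest signal, 5.72, in LY6D- luminal mouse 5. Irf7 spanned 0.95 over the 12 arrays and Irf1 1.63. In the basal gate all 4 factors had a fitted LY6D+ minus LY6D- difference below 0, between -0.77 and -0.44, each with an adjusted p of 1.00 by limma.

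The IFIT proteins bind viral RNA ends and block its translation. Ifit1 read 3.93 and 4.63 in LY6D+ and 4.10 and 3.62 in LY6D- Sca1-high cells, 3.98 and 4.33 in LY6D+ and 4.92 and 3.93 in LY6D- basal cells, and 4.82 and 4.61 in LY6D+ and 4.81 and 5.97 in LY6D- luminal cells. The luminal and the other arrays overlapped, and the difference of Sca1-high minus luminal cells, -0.98 ± 0.33, was not called (adjusted p = 0.448, limma). Ifit2 and Ifit3 were highest in LY6D+ Sca1-high mouse 5, at 5.16 and 6.95.

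Of the GTPases, Mx1 and Mx2, which trap viral nucleoproteins, lay around the lower quartile of the table in most arrays. Mx1 exceeded the lower quartile in 6 arrays and reached at most 3.56, and Mx2 exceeded it in 10 and reached 4.48 in LY6D+ Sca1-high mouse 5. Gbp3 encodes a guanylate-binding protein that attacks the membranes around intracellular microbes. It read 3.99 and 5.34 in LY6D+ and 4.18 and 4.48 in LY6D- Sca1-high cells, 3.65 and 3.57 in LY6D+ and 5.36 and 4.21 in LY6D- basal cells, and 3.66 to 4.26 in luminal cells.

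Ifitm3, which hinders viral entry through endosomes, had a signal of 9.36 or more in every array. It read 10.66 and 10.31 in LY6D+ and 10.78 and 10.47 in LY6D- Sca1-high cells, 11 and 11.47 in LY6D+ and 10.24 and 11.26 in LY6D- basal cells, and 9.36 and 10.05 in LY6D+ and 10.32 and 9.74 in LY6D- luminal cells. The basal and luminal arrays overlapped only through LY6D- basal mouse 3. Basal minus luminal cells differed by 1.12 ± 0.29 and Sca1-high minus luminal cells by 0.69 ± 0.29, opposite in sign to Ifnb1, and neither passed (adjusted p = 0.196 and 0.571, limma). Cmpk2, a mitochondrial nucleotide kinase gene that neighbours Rsad2, ranged over only 0.83 and was among the 5 members whose basal arrays all lay below the luminal ones. Rsad2 encodes viperin, which makes a chain-terminating nucleotide. Its level was 6.45 in LY6D- luminal mouse 5 and between 3.74 and 4.48 in the 11 other arrays. Bst2 encodes tetherin, which holds budding virus at the cell surface, and ranged between 3.88 and 6.14 without separating any groups.

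Isg15 encodes a ubiquitin-like protein that is joined to other proteins during the response, Usp18 removes it, and Trim25 is a ubiquitin ligase that acts on RIG-I. Isg15 read 5.11 and 6.17 in LY6D+ and 6.12 and 4.33 in LY6D- Sca1-high cells, 4.73 and 4.07 in LY6D+ and 5.68 and 4.38 in LY6D- basal cells, and 4.77 and 5.19 in LY6D+ and 4.30 and 6.78 in LY6D- luminal cells. High and low arrays occurred in every gate, and the largest gate difference of Isg15, 0.72 ± 0.61 for Sca1-high minus basal cells, had an adjusted p of 0.667 by limma. Usp18 stayed between 4.02 and 5.28 and Trim25 between 4.42 and 6.47, both highest in LY6D- luminal mouse 5.

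Isg15 and Ifit1 are shown as promoters that hold several ISRE cores and belong to genes that were highest in the same array. In the Isg15 window (chr4:156200769-156201068, minus strand, GRCm38.p6) 3 overlapping cores start 66 to 78 bases before the gene's start, and in the Ifit1 window (chr19:34640639-34640938, plus strand) 3 cores start 84 to 109 bases before it. Capitals mark the cores, which run in the GAAANNGAA form in Isg15 and in its reverse complement TTCNNTTTC in Ifit1.
Isg15: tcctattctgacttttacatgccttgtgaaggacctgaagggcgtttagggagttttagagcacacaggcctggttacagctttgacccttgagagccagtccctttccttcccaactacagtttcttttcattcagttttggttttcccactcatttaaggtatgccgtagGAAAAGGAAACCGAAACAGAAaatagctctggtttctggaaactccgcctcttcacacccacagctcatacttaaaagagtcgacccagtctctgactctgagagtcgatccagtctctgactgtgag
Ifit1: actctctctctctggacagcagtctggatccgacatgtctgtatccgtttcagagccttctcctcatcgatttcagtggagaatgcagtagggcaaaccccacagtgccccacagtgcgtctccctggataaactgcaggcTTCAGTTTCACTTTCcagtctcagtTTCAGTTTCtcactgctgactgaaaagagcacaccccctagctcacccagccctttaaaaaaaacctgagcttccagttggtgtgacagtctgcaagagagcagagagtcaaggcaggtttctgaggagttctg

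The antigen processing genes supply peptides to MHC class I molecules. Psmb8 and Psmb9 are subunits of the immunoproteasome, Tap1 is part of the peptide transporter and B2m is the light chain of class I. B2m was bright throughout, and its signals of 13.02 and 13.05 in LY6D+ and 12.66 and 13.12 in LY6D- basal cells all lay below 13.70 and 13.66 in LY6D+ and 13.41 and 13.58 in LY6D- luminal cells. That difference was -0.63 ± 0.19 (adjusted p = 0.275, limma), and Sca1-high cells at 13.21 ± 0.28 lay between. Psmb8 read 4.99 and 5.51 in LY6D+ and 6.05 and 5.14 in LY6D- Sca1-high cells, against 4.26 and 3.91 in LY6D+ and 5.15 and 4.45 in LY6D- basal cells. The groups overlapped in 1 basal array, and the difference of 0.98 ± 0.27 was not called (adjusted p = 0.348, limma). Psmb9 reached 6.05 in LY6D- luminal mouse 5 and 6.03 in LY6D- basal mouse 3 and was at most 4.94 elsewhere, and Tap1 ranged over 0.81.

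Among the remaining induced genes, Xaf1 and Ifi35 were lower in the LY6D+ array of every pair. Xaf1, an antagonist of the apoptosis inhibitor XIAP, read 4.75 and 4.73 in LY6D+ and 5.5 and 5.62 in LY6D- Sca1-high cells, 4.91 and 4.70 in LY6D+ and 6.84 and 5.49 in LY6D- basal cells, and 3.66 and 4.18 in LY6D+ and 4.66 and 4.89 in LY6D- luminal cells. In each of the 6 pairs from the same mouse and gate the LY6D+ array was the lower one, with differences between -1.93 and -0.71. Averaged over the gates LY6D+ minus LY6D- was -1.01 ± 0.23, the smallest p of the 36 (0.0017), yet the adjusted p over all genes was 1.00 by limma. Basal minus luminal cells differed by 1.14 ± 0.29 in Xaf1 (adjusted p = 0.180, limma).

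Ifi35, which encodes an interferon-induced leucine zipper protein, read 5.33 and 4.88 in LY6D+ and 5.83 and 5.43 in LY6D- Sca1-high cells, 5.03 and 5.11 in LY6D+ and 5.71 and 5.87 in LY6D- basal cells, and 5.01 and 4.79 in LY6D+ and 5.42 and 5.75 in LY6D- luminal cells. All 6 LY6D+ arrays were below all 6 LY6D- arrays, with means of 5.02 ± 0.19 and 5.67 ± 0.20 (SD, n = 6 arrays from 4 mice). The share of all genes that separate the classes in this way was not counted, and Ifi35 is named for its small p. These values are of the brighter of 2 single-symbol probe sets of Ifi35, and whether the other separates the classes was not examined. The difference over the gates was -0.64 ± 0.16 with an unadjusted p of 0.0025 and an adjusted p of 1.00 by limma.

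Rtp4, a chaperone of receptors at the cell surface, read 6.86 and 4.69 in LY6D+ and 4.95 and 4.50 in LY6D- Sca1-high cells, 3.42 and 3.08 in LY6D+ against 4.86 and 4.83 in LY6D- basal cells, and 4.00 to 4.58 in luminal cells. Its LY6D+ minus LY6D- difference in the basal gate, -1.60 ± 0.58, was not called (adjusted p = 1.00, limma). Parp9 and Parp14, ADP-ribosyltransferase genes of the response, each had 1 array far above the rest, LY6D+ Sca1-high mouse 5 at 7.21 and 7.74, with 3.74 to 5.58 for Parp9 and 4.30 to 5.88 for Parp14 in the 11 others. The LY6D difference of Parp14 in the Sca1-high gate, 1.43 ± 0.63, ran between 0.18 and 2.68 over the 23 alternatives and passed the threshold in 1 of them, without LY6D+ Sca1-high mouse 1 (adjusted p = 0.0408, limma). LY6D+ Sca1-high mouse 5 also had the highest endothelial marker mean, 7.0. In LY6D- Sca1-high mouse 1 that mean was 6.89, with Parp9 at 5.41 and Parp14 at 5.32. The part of the endothelial markers in these values was not tested.

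**Figure D3:**
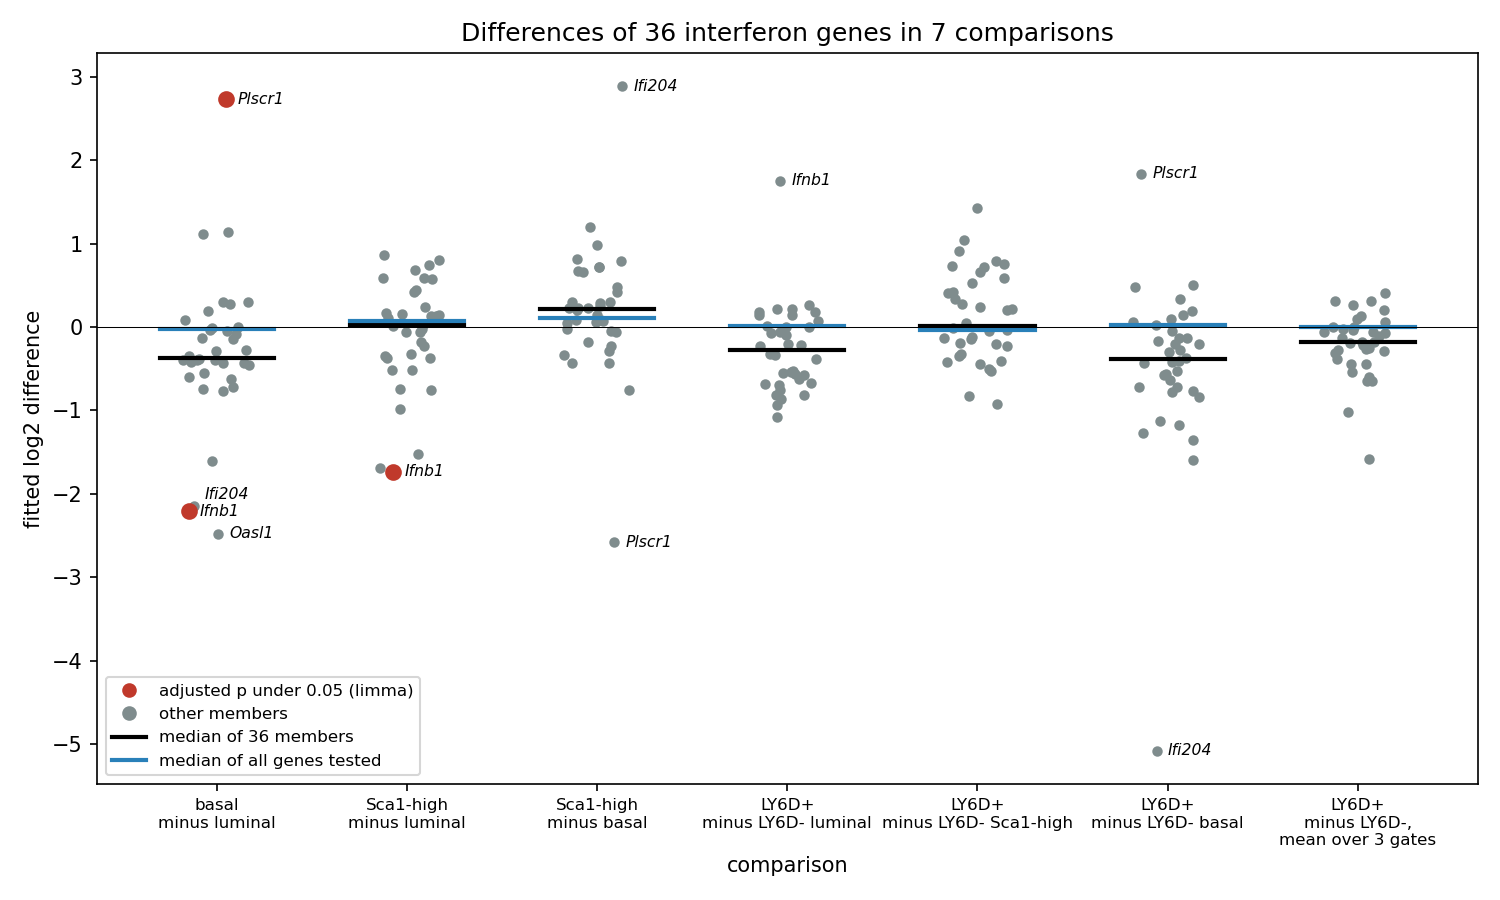
Fitted log2 difference of each of the 36 interferon genes in 7 comparisons, with the median of the 36 in black, the median of all genes tested in blue, and genes past an adjusted p of 0.05 by limma in red. Points past 1.7 in size are named; the median of the 36 was lowest, at -0.39, for LY6D+ minus LY6D- basal cells.

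Between LY6D+ and LY6D- cells limma called 0 of the 36 genes in the Sca1-high gate, 0 in the basal gate, 0 in the luminal gate and 0 over the 3 gates, where 0%, 0.00993%, 0% and 0% of all genes were called. At an unadjusted p under 0.05 there were 1, 7, 3 and 6 members in the same order (2.78%, 19.4%, 8.33% and 16.7%, against 2.41%, 2.20%, 3.56% and 2.62% of all genes). In the basal gate 6 of those 7 members were lower in LY6D+ cells, and over the 3 gates all 6 were. Beside this, 0 of 16 endothelial markers had a positive LY6D+ minus LY6D- difference in the basal gate (median -1.56). In the luminal gate 3 of 12 lymphoid markers (median -1.04) and 8 of 8 basal epithelial markers (median 0.90) had one. The part of these marker lists in the members' differences was not tested. The median difference of the 36 was 0.01 in Sca1-high, -0.39 in basal and -0.28 in luminal cells, against -0.04, 0.02 and 0.02 over all genes, and the luminal value was -0.13 without LY6D- luminal mouse 5 and the basal value -0.21 without LY6D- basal mouse 3. Over the 6 pairs of arrays from the same mouse and gate, 0 members were higher in every LY6D+ array, against 1.45% of all genes, and 3 were lower in every one, against 1.39%. These were Xaf1, Ifi35 and Cmpk2, of which Cmpk2 had pair differences between -0.21 and -0.000986.

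**Figure D4:**
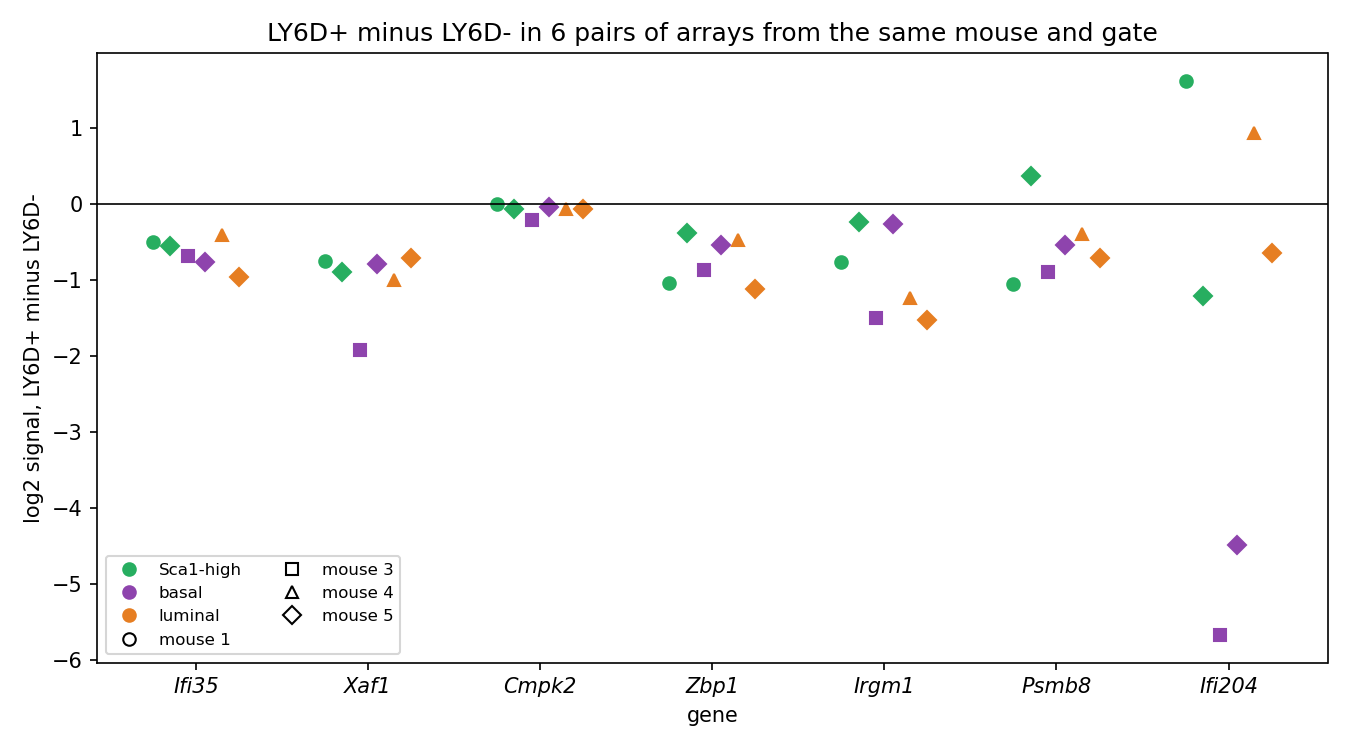
LY6D+ minus LY6D- log2 signal in the 6 pairs of arrays from the same mouse and gate, for 5 interferon genes and for Zbp1 and Irgm1, further interferon-induced genes outside the 36; colours give the gate and shapes the mouse. Ifi35, Xaf1, Cmpk2, Zbp1 and Irgm1 were below 0 in all 6 pairs, Cmpk2 by very little, and Ifi204 lay furthest below 0 in the pair of basal mouse 3.

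Whether the LY6D difference itself differed between gates was tested with interaction terms, and limma called 0 members in each of the 3 (0%, 0% and 0% of all genes), with 2, 4 and 4 members at an unadjusted p under 0.05 for basal against luminal, Sca1-high against luminal and Sca1-high against basal gates (5.56%, 11.1% and 11.1%, against 2.45%, 2.92% and 2.36% of all genes). The interaction of Ifi204, which rests on those 2 LY6D+ basal values, was 5.28 ± 1.10 for the Sca1-high against the basal gate, with an unadjusted p of 0.000905 and an adjusted p of 1.00 by limma. For Ifnb1 it was -2.05 ± 0.49 for the basal against the luminal gate (adjusted p = 0.999, limma). A test of any difference between the 6 groups called 0 members (0.0348% of all genes), with 10 at an unadjusted p under 0.05 (27.8%, against 5.66% of all genes) and the smallest adjusted p, 0.0748 by limma, for Ifnb1.

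The members varied between groups and between arrays of 1 group. The median range of the 36 over the 12 arrays was 2.0, against 1.19 over all genes tested, and 18 of them (50%, against 21.9%) spanned more than 2 units. Such a range mixes gate, LY6D and replicate differences. The median SD within groups was 0.48. Within groups the SD was 0.34 for Ifnb1, whose range was 3.84, and 1.03 for Isg15, whose range was 2.71. The LY6D- luminal array of mouse 5 had the highest signal of 11 of the 36 (30.6%, against 9.51% of all genes): Isg15, Rsad2, Ifit1, Stat2, Bst2, Usp18, Trim25, Psmb9, Ifih1, Oasl1 and Cmpk2. Its partner of mouse 4 was highest for 0 of the 36. The LY6D- luminal array of mouse 5 also had the highest myeloid mean, 7.55, the highest lymphoid mean, 5.60, the highest signal of the leukocyte antigen gene Ptprc, 8.90, and the fewest genes above the lower quartile, 17608. It held the lowest signal of 20.9% of all genes, the most of any array, and of 1 of the 36 (2.78%). The LY6D+ basal arrays were lowest for 16 of the 36 (44.4%, against 16.6% of all genes), 5 in mouse 3 and 11 in mouse 5, and there the myeloid means were 4.68 and 4.87 and the endothelial means 4.28 and 4.47. The part of the marker lists in these values was not tested.

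**Figure D5:**
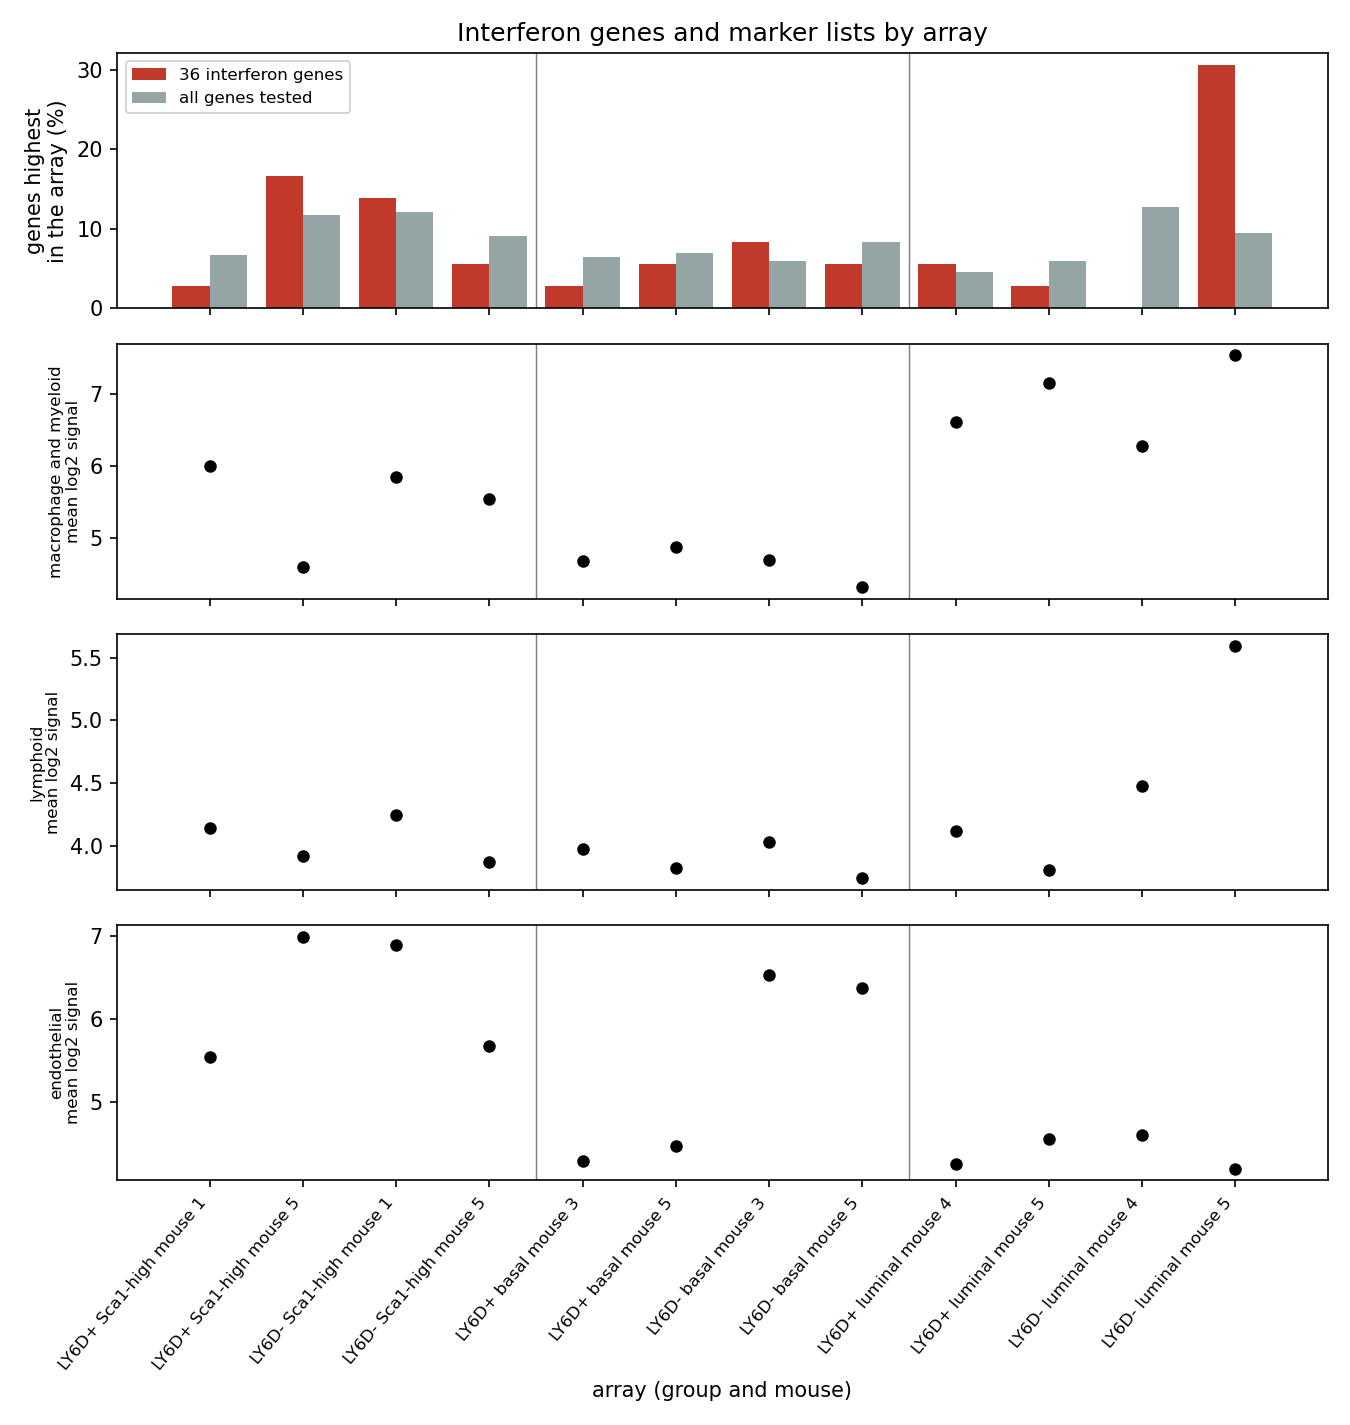
Share of the 36 interferon genes and of all genes tested that had their highest signal in each array (bars, %), above the mean log2 signal of 3 marker lists in the same arrays. The LY6D- luminal array of mouse 5, at the right, held 30.6% of the interferon genes and had the highest myeloid and lymphoid means.

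Genes of the pathway outside the 36 were taken from a list of receptors, kinases, factors, sensors and further induced genes. Of 44 such genes 41 were measured and 40 tested, and limma called 0 of the 40 in each of the 7 comparisons. At an unadjusted p under 0.05, 0 were higher and 8 lower in basal than in luminal cells, and 1 higher and 6 lower in Sca1-high than in luminal cells, where 9.44% and 8.41% of all genes passed that p in either direction. Ifnar1, a chain of the type I receptor, averaged 4.84 ± 0.17 in Sca1-high, 5.24 ± 0.37 in basal and 6.49 ± 1.40 in luminal cells, with 8.49 in LY6D- luminal mouse 5 and 5.43 to 6.43 in the 3 other luminal arrays. Its partner Ifnar2 averaged 5.45 ± 0.61, 5.73 ± 1.61 and 6.22 ± 1.11 in the same gates. For interferon gamma, Ifngr1 averaged 6.47 ± 1.05, 5.86 ± 0.60 and 6.97 ± 0.78, and Ifngr2 averaged 5.32 ± 0.15, 5.71 ± 0.39 and 6.43 ± 0.53. The Sca1-high minus luminal difference of Ifngr2, -1.11 ± 0.24, had the smallest adjusted p of the 40 in that comparison, 0.187 by limma.

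In 2 of the 40 pathway genes the LY6D+ array was the lower one in all 6 pairs, against 1.39% of all genes. Irgm1 encodes a GTPase that mice use against intracellular microbes, and averaged 4.24 ± 0.65 in LY6D+ and 5.16 ± 0.56 in LY6D- arrays (SD, n = 6). Zbp1, a sensor of left-handed nucleic acid that can start cell death, averaged 4.00 ± 0.37 and 4.74 ± 0.50. The differences over the gates, -0.92 ± 0.23 and -0.74 ± 0.19, were not called (adjusted p = 1.00 for both, limma). Sting1, the adaptor downstream of the DNA sensor cGAS, read 5.25 and 5.40 in LY6D+ against 4.38 and 4.42 in LY6D- basal cells, but 4.33 and 4.32 in LY6D+ against 5.17 and 4.75 in LY6D- Sca1-high cells, with no call (adjusted p = 1.00 for both, limma).

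Promoter windows from RefSeq (GRCm38.p6), each from 250 bases before to 50 after an annotated start, were matched by symbol to 29 of the 38 listed genes. The ISRE core, GAAANNGAA or TTCNNTTTC, occurred in a window of 15 of the 29 (51.7%), against 9.76% of 27025 genes with a window. The GAS, TTCNNNGAA, which is its own reverse complement, occurred in 8 (27.6%), against 9.55% of all genes. The 2 motifs overlapped each other in 2 of the windows, and the windows of Psmb9 and Tap1 share 275 bases because the genes diverge from 1 region. Isg15, Ifit1 and Ifit3 held 3 cores each. Ifnb1, Plscr1 and Oasl1 held none, and Ifih1 held 2. Of the 11 genes highest in LY6D- luminal mouse 5, 10 had a window and 7 of these held a core, against 8 of the 19 other listed genes. Whether these shares differ was not tested. Those 19 include Gbp2 and Ifi44, which held 1 core each but were not measured, so the array where they are highest is not known. These matches describe letters in a window, not binding.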

How the data were processed

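Total RNA of the 12 sorted samples was extracted with RNeasy columns, and NuGEN's Ovation V2 kit served for amplification and labelling, per the labels' protocols. The authors deposited 1 table of log2 signals for 41345 probe sets; RMA and oligo are named, without versions, per the submitters' processing notes, and the genome build is not given in the sources used here. No value was renormalized and no detection p was used. Probe sets with 1 symbol in the platform annotation (23521) were kept, the brightest per gene, and genes were tested when at least 2 arrays exceeded the lower quartile, 2.98. All comparisons used limma 3.58.1 (R 4.3.3) on all 12 arrays with 6 group means (6 residual and 3.28 prior degrees of freedom), a gate being the mean of its LY6D+ and LY6D- groups, and p-values were adjusted by the Benjamini-Hochberg method over 20135 genes within a comparison at 0.05. The fit was tested on simulated data. Mouse numbers come from the labels and pair the LY6D+ and LY6D- arrays of a gate; after removing group means, paired arrays correlated at 0.149 for Sca1-high, 0.407 for basal and 0.0220 for luminal cells. Arrays of a group come from separate mice, but 1 mouse gives several arrays, so these are not independent and p-values may be too small. For the LY6D+ minus LY6D- comparisons, where the main fit leaves the pairing out, they may instead be too large. With 2 arrays a group, their number limits the precision.

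The members and lists were chosen with earlier results of these data known. Named genes are, per comparison, the members called and, where fewer than 5 were, the 3 with the smallest p on each side, the 8 widest and 3 narrowest in range, and Ifnb1; the others are given by role. Pathway genes named are the IFNAR and IFNGR chains and genes among the 3 smallest p of a comparison. Promoters are RefSeq's.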

Additional observations from a re-analysis of the deposited data

Results flagged for a closer look

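In 7 of 108 combinations of a member and a gate, 1 of the 4 arrays lay apart from the other 3 by Dixon's ratio, where chance flags about 1 in 20. In the LY6D- luminal array of mouse 5, Rsad2 at 6.45, Ifit1 at 5.97 and Psmb9 at 6.05 were far above the other luminal arrays, and Oas3 at 4.26 was far below them. In the basal gate Irf9 at 5.48 in LY6D- mouse 5 was far above the other basal arrays. In the Sca1-high gate Mx1 at 3.56 in LY6D- mouse 5 was above the other arrays, which were all at or below the lower quartile, and Ifnb1 at 2.60 in LY6D+ mouse 1 was below the other arrays, of which the highest read 3.01. No interaction of LY6D with the gate was called for any member.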

How the results depend on the processing

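The calls rest on few arrays. For basal minus luminal cells the 2 members called was 1 with medians centred and 1 with only the groups compared, 0 without the 3 mouse 5 arrays apart on component 1, and 0 to 5 when single arrays were left out (5 without LY6D- luminal mouse 4, 0 without LY6D+ basal mouse 3). For Sca1-high minus luminal cells the 1 call became 0 with medians centred, array weights, only the groups compared, without those 3 arrays and without LY6D+ Sca1-high mouse 5, and 0 to 2 leaving out single arrays. Leave-one-out counts were 0 to 1 for Sca1-high minus basal, for LY6D in the luminal and in the Sca1-high gate, for its Sca1-high against basal interaction and for any difference. With mouse as a replicate block, the paired fit, Plscr1 and the Sca1-high Ifnb1 call were lost and Oasl1 was gained in both gate comparisons against luminal cells; it changed no other call. Median differences moved as follows: basal minus luminal -0.37, to -0.057 without the 3 arrays and -0.40 to -0.15 leaving out single arrays; Sca1-high minus luminal 0.02, to -0.14 without LY6D+ Sca1-high mouse 5 and -0.14 to 0.13; Sca1-high minus basal 0.21, 0.089 to 0.27; LY6D luminal -0.28, to -0.13 without the 3 arrays and -0.47 to -0.13; LY6D Sca1-high -0.068 to 0.19; LY6D basal -0.41 to -0.21. Signs turned for Oas3 in LY6D luminal cells (-0.045 without the 3 arrays or without LY6D- mouse 5, against 0.21; -0.045 to 0.47 leaving out single arrays) and Ifitm3 in LY6D basal cells (-0.028 without LY6D- mouse 3, against 0.48; up to 1.0). The TTC form of the ISRE core on the gene strand alone was in 9 genes. Of the alternatives added after seeing the data, quantile normalization gave 2 members above and 3 below in basal against luminal arrays and 1 above and 4 below in Sca1-high against luminal arrays, centring gave 4 below in the last, and without LY6D+ Sca1-high mouse 5 that gate was highest for 9 members. Over the named members and comparisons, 920 values kept their sign and side of the threshold, 29 lost and 8 gained a call. Most of the 920 had no call in the main fit either. All 29 losses fell on the calls of the main fit. Of 23 alternatives, the Ifnb1 call passed in 21 for basal and in 7 for Sca1-high minus luminal cells. The Plscr1 call for basal minus luminal cells passed in 12. The cause of these changes was not tested.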
